A study of Mus musculus with 4 samples.

Results

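The genes described here are 43 genes of DNA replication and S phase, the part of the cell cycle in which the genome is copied. They were listed by name and kept where a gene had at least 20 UMIs (unique molecular identifiers, 1 per captured RNA molecule) over both libraries. All 43 passed, among 10122 genes that did and 32285 in the RNA table, and 32 of the 43 had at least 100 UMIs. The cells were T cells of the bone marrow, sorted as CD4 and CD8 T cells 14 days after an allogeneic bone marrow transplant, with 4 mice pooled in each group. Every recipient was a C57Bl/6 mouse given marrow of C3H.SW donors (5000000 cells) together with T cells of the same donors, 500000 of them CD4 and 500000 CD8. The alloBMT group had the transplant alone. The PT-Cy group also had 50 mg/kg cyclophosphamide, a drug that alkylates DNA and is toxic to cells in division, on days 3 and 4. RNA and open chromatin (ATAC, which marks DNA a transposase can reach) were read from the same cells with the 10X Multiome platform, and each group is 1 library of pooled animals.

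Replication starts at origins. Before S phase, Cdc6 and Cdt1 load the Mcm2-7 helicase onto DNA, a step called licensing. At the start of S phase Cdc45, the GINS complex and Mcm10 turn the loaded helicase on, the primase and polymerase alpha begin each new strand, and polymerases delta and epsilon extend it while held to DNA by the sliding clamp Pcna. E2F transcription factors switch most of these genes on as a cell leaves G1, and dividing T cells express them strongly.

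Promoters of 6 members are shown because the RNA results turn on them. Neil3, E2f8 and Rrm2 had the highest ratios of PT-Cy to alloBMT, Mcm6 and Rpa2 were the 2 members whose counting interval of that ratio lay below 0, and E2f7 is the partner of E2f8. Each line gives the 150 bases before the annotated start, 5′ to 3′ on the gene's strand, from RefSeq's GRCm38.p6. Capitals mark E2F letters (TTCCCGC or TTGGCGC, or their reverse complements GCGGGAA and GCGCCAA) and the CCAAT box (CCAAT or ATTGG).
Neil3: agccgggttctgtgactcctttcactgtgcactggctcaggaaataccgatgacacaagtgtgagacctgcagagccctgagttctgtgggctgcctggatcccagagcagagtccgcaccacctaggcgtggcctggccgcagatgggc
E2f8: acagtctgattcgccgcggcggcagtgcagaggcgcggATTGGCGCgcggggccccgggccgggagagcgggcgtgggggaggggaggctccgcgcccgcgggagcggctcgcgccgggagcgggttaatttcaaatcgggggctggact
Rrm2: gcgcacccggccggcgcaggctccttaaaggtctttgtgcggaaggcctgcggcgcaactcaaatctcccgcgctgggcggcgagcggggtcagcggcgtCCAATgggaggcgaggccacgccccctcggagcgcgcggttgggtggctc
E2f7: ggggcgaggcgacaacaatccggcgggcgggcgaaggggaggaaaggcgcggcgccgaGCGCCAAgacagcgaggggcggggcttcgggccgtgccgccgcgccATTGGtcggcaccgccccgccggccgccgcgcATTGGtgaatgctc
Mcm6: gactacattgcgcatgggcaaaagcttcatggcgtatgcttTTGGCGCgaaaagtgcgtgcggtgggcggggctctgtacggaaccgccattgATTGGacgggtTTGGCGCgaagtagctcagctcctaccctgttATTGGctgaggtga
Rpa2: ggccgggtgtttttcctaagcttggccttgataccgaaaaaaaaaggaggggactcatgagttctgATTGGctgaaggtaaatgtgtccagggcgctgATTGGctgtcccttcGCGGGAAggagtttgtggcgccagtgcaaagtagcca
The Neil3 stretch is chr8:53639066-53639215 on the minus strand, E2f8 chr7:48881597-48881746 minus, Rrm2 chr12:24708104-24708253 plus, E2f7 chr10:110745289-110745438 plus, Mcm6 chr1:128359706-128359855 minus and Rpa2 chr4:132768210-132768359 plus. All 6 lie inside a deposited ATAC peak. They are upstream of the gene in RefSeq's annotation, except that E2f8's annotated span reaches 48882073, so its stretch lies upstream of the start that the promoter table uses and inside the gene. In E2f8 the CCAAT box and the E2F letters overlap, so their capitals run together.

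RefSeq's table held a promoter window (250 bases before the start to 50 after it) for 36 of the 43 members, and every one of the 36 lay on a peak. E2F letters were in 20 of these 36 windows (55.6%), against 1682 of 14373 genes with a window on a peak (11.7%). The CCAAT box was in 22 of 36 (61.1%), against 36.7% of those genes, and the TTTGAA letters of the CHR element (either strand), which is known from genes of mitosis, were in 4 of 36 (11.1%), against 11.8%. Among licensing genes 6 of 7 windows held E2F letters, among nucleotide supply genes 1 of 4, and in Mcm10 and Cdc45 none did. The median log2 ratio of RNA, PT-Cy to alloBMT, was 0.57 over the 20 members with E2F letters and 0.85 over the 16 without. A match is a stretch of letters and shows no binding.

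RNA came from 926 alloBMT and 284 PT-Cy cells of the CD4 set, with 3027967 and 1264107 UMIs and medians of 2750.0 and 3889 UMIs per cell. All levels are CPM (UMIs of a gene divided by all UMIs of the library and multiplied by 1000000). No library was repeated, so no difference between the groups could be tested, and no p-value is given. Each interval is an exact 95% interval for the counting of molecules alone and leaves out how much mice or cells vary. Where the text says that an interval of a log2 ratio lies above or below 0, it means nothing more. T cell markers summed to 5111 CPM in alloBMT and 3633 in PT-Cy, with all 6 detected in both, and Cd8a was at 0 in both. Cd8b1 stood at 100.1 and 131 CPM. Markers of erythroid cells stood at 213 CPM in alloBMT and 876 in PT-Cy (8 listed, not all of them detected in alloBMT), and those of myeloid cells and neutrophils at 39.0 and 301 (11 listed, none at 0). Markers of natural killer cells (2 listed) stood at 0.66 CPM in alloBMT and 30.1 in PT-Cy, and those of B and plasma cells (7 listed) at 1.98 and 12.7. Progenitor markers stood at 0.66 and 3.96 CPM, and megakaryocyte markers at 3.30 and 0.79. The libraries shared 2 cell barcodes of 3587, none of them in the CD4 set. The part of these other cell types in the results below was not tested beyond the values given with each.

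Summed over the 43 members, alloBMT had 6451 UMIs (2130.5 CPM) and PT-Cy 3643 UMIs (2882 CPM). The log2 ratio of PT-Cy to alloBMT was 0.44 (0.38 to 0.49). At least 2-fold higher in PT-Cy were 12 of the 43 members, against 9.01% of the 10122 genes, and 0 were 2-fold lower, against 4.68%. The interval lay above 0 for 23 members, against 20.8% of genes, and below 0 for 2, Mcm6 and Rpa2, against 13.7%. The median over members was 0.51, and over all genes 0.06. Scaling by edgeR's TMM or DESeq2's size factors lowers every ratio by 0.13 or 0.14. Of the 23 members, 6 had a value below 0 in cells outside cluster 2, a cluster described below that holds most PT-Cy cells: Cdc6 (-1.15), Mcm5 (-1.06), E2f7 (-0.78), Slbp (-0.35), Pola1 (-0.16) and Atad2 (-0.11). Only 46 PT-Cy cells lie outside it, most of them in cluster 4. In cluster 4 alone PT-Cy had 1 Cdc6, 4 Mcm5 and 1 E2f7 UMIs. Of all 51 E2f7 UMIs of PT-Cy, 49 were in cluster 2. The values of these members outside cluster 2 thus rest on very few molecules.

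**Figure D1:**
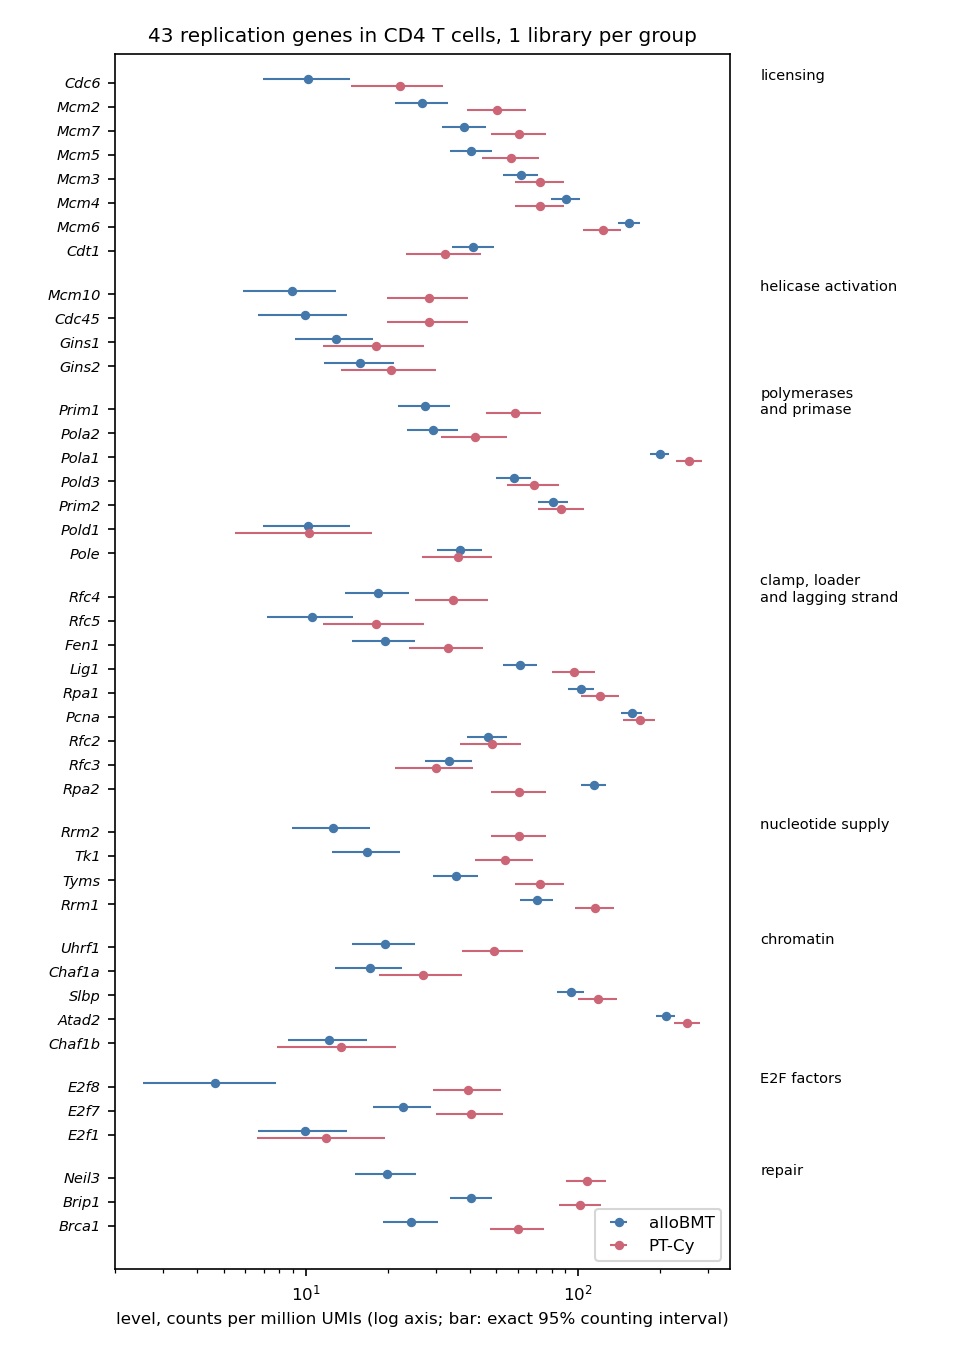
Level of each of the 43 genes in CD4 T cells, in CPM on a log axis, grouped by role and ordered within a role by the ratio of the libraries. Points are the alloBMT and PT-Cy libraries and bars exact 95% counting intervals; E2f8, Neil3 and Rrm2 lie farthest apart, and Rpa2 is lower in PT-Cy.

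The licensing genes barely differed as a group, with 464 CPM in alloBMT and 492 in PT-Cy and a log2 ratio of 0.09 (-0.05 to 0.22). Subtracting the TMM shift turns that value below 0. Within the Mcm2-7 ring, whose 6 subunits form 1 complex, the subunits differed in direction. Mcm2 had 81 UMIs in alloBMT and 64 in PT-Cy (26.8 and 50.6 CPM), a ratio of 0.92 (0.42 to 1.41), and Mcm7 116 and 77 UMIs (38.3 and 60.9 CPM), a ratio of 0.67 (0.23 to 1.10). Mcm5 stood at 40.6 and 57.0 CPM, a ratio of 0.49 that turned to -0.65 without cells that had 2 or more erythroid or myeloid UMIs. That exclusion left 743 alloBMT and 71 PT-Cy cells. Mcm3 stood at 61.8 and 72.8 CPM. Mcm4 was at 90.2 CPM in alloBMT and 72.8 in PT-Cy, and its interval (-0.67 to 0.04) included 0. Mcm6 had 468 UMIs in alloBMT and 156 in PT-Cy (155 and 123 CPM), a ratio of -0.32 (-0.60 to -0.06). So over all CD4 cells Mcm2 and Mcm7 were higher in PT-Cy and Mcm6 lower, beyond counting error. In cluster 2 alone Mcm7 had the other direction, with 19 UMIs in alloBMT (102 CPM) and 61 in PT-Cy (58.3 CPM). There Mcm2 stood at 26.7 and 51.6 CPM, on 5 UMIs in alloBMT, and Mcm6 at 176 and 129 CPM. The loaders also differed. Cdc6 was the highest of the group in ratio at 1.11 (0.32 to 1.90), on 31 and 28 UMIs, and Cdt1, whose protein is destroyed during S phase, was the lowest at -0.35 (-0.89 to 0.17), on 125 and 41 UMIs.

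Genes that turn the helicase on had few UMIs, 144 in alloBMT and 121 in PT-Cy, and a summed log2 ratio of 1.01 (0.65 to 1.37). Mcm10 had 27 and 36 UMIs (8.92 and 28.5 CPM), the highest ratio of this group at 1.68. Cdc45, a helicase partner, had 30 and 36 UMIs and a ratio of 1.52 (0.78 to 2.27). Gins1 and Gins2, both GINS subunits, stood at 12.9 and 15.9 CPM in alloBMT and 18.2 and 20.6 in PT-Cy, with intervals that included 0.

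Polymerases and primase summed to 443 CPM in alloBMT and 558 in PT-Cy, a log2 ratio of 0.33 (0.20 to 0.47). Prim1, the catalytic primase subunit, had 83 and 74 UMIs (27.4 and 58.5 CPM) and the highest ratio of the group, 1.09 (0.62 to 1.56). Its partner Prim2 stood at 80.9 and 87.0 CPM, a ratio of 0.10 (-0.23 to 0.44). Pola1, the catalytic subunit of polymerase alpha, had 605 UMIs in alloBMT and 323 in PT-Cy (199.8 and 256 CPM), a ratio of 0.35 (0.16 to 0.55). Pola2 stood at 29.4 and 41.9 CPM, and Pold3, an accessory subunit of polymerase delta, at 58.1 and 68.8 CPM. Pole, the catalytic subunit of polymerase epsilon, was level at 37.0 and 36.4 CPM and had the lowest ratio of the group, -0.02 (-0.55 to 0.48). The 2 primase subunits therefore differed in ratio although they act as 1 enzyme.

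The sliding clamp, its loader and the lagging strand genes summed to 565 CPM in alloBMT and 611 in PT-Cy, a log2 ratio of 0.11 (-0.01 to 0.24), which the TMM shift also turns below 0. Pcna itself had 478 and 213 UMIs (158 and 168 CPM), a ratio of 0.09 (-0.15 to 0.33). Of the clamp loader subunits, Rfc4 was the highest, at 18.5 and 34.8 CPM and a ratio of 0.91 (0.31 to 1.51). Rfc2 stood at 46.6 and 48.3 CPM and Rfc3 at 33.7 and 30.1 CPM. Lig1, the ligase that joins Okazaki fragments, had 61.4 and 96.5 CPM, a ratio of 0.65 (0.31 to 0.99), and Fen1, which trims their ends, 19.5 and 33.2 CPM, a ratio of 0.77 (0.16 to 1.37).

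The single-strand binding protein RPA set its subunits apart. Rpa2 had 347 UMIs in alloBMT and 77 in PT-Cy (115 and 60.9 CPM), the lowest ratio of all members, -0.91 (-1.29 to -0.55). Rpa1 had 311 and 153 UMIs (103 and 121 CPM) and a ratio of 0.24 (-0.05 to 0.52). Within alloBMT, Rpa2 stood at 92.4, 140.2 and 143 CPM in clusters 0, 1 and 3 and at 74.8 CPM in cluster 2, and in PT-Cy cluster 2 at 68.8 CPM. In cluster 2 the log2 ratio of Rpa2 was -0.12 (-0.96 to 0.82), on 14 UMIs in alloBMT and 72 in PT-Cy. This wide interval also holds the value over all CD4 cells, -0.91.

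Over all CD4 cells, nucleotide supply genes were higher in PT-Cy. All 4 had intervals above 0, and their sum went from 136 CPM in alloBMT to 303 in PT-Cy, a log2 ratio of 1.16 (0.95 to 1.36). Rrm2, the S phase subunit of ribonucleotide reductase, had 38 UMIs in alloBMT and 77 in PT-Cy (12.5 and 60.9 CPM), a ratio of 2.28 (1.70 to 2.88). Its partner Rrm1 had 214 and 146 UMIs (70.7 and 115 CPM) and a ratio of 0.71, the lowest of the group. Tk1, thymidine kinase, had 51 and 68 UMIs (16.8 and 53.8 CPM), a ratio of 1.68 (1.13 to 2.23), and Tyms, which makes thymidylate, 108 and 92 UMIs (35.7 and 72.8 CPM), a ratio of 1.03 (0.61 to 1.44).

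Among chromatin genes, whose sum had a log2 ratio of 0.38 (0.23 to 0.53), Uhrf1 was highest. It carries DNA methylation to the new strand, and had 59 and 62 UMIs (19.5 and 49.0 CPM), a ratio of 1.33 (0.79 to 1.87). Atad2, which binds acetylated histones, had 636 and 318 UMIs (210.04 and 252 CPM) and a ratio of 0.26, and Slbp, which binds histone mRNA, 285 and 150 UMIs (94.1 and 119 CPM) and a ratio of 0.33, which turned to -0.23 without cells that had 2 or more erythroid or myeloid UMIs. Chaf1b, a subunit of the histone chaperone CAF-1, was lowest at 0.14, on 37 and 17 UMIs, with an interval that included 0.

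E2F factors were low in both libraries but far apart in ratio. E2f8, a repressor of E2F targets, had 14 UMIs in alloBMT and 50 in PT-Cy (4.62 and 39.6 CPM), the highest ratio of all members, 3.10 (2.22 to 4.07). E2f7, its partner, had 69 and 51 UMIs (22.8 and 40.3 CPM) and a ratio of 0.82 (0.27 to 1.37). E2f1, an activator, had 30 and 15 UMIs and the lowest ratio of the group, 0.26 (-0.74 to 1.20). The 3 repair genes all had intervals above 0. Neil3, a DNA glycosylase of dividing cells, had 60 UMIs in alloBMT and 136 in PT-Cy (19.8 and 108 CPM), a ratio of 2.44 (1.99 to 2.90). Brip1, a helicase that acts with Brca1, had 123 and 129 UMIs and a ratio of 1.33 (0.96 to 1.70), and Brca1 74 and 76 UMIs and a ratio of 1.30 (0.82 to 1.78).

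The CD4 cells fall into 5 clusters in the deposited annotation, numbered 0 to 4, and the libraries fill them differently. In alloBMT 42 of 926 cells were in cluster 2, in PT-Cy 238 of 284. PT-Cy had 31 cells in cluster 4 and only 4 and 11 in clusters 0 and 3, which are given no value. In alloBMT the members summed to 1969 CPM in cluster 0 (1888 to 2052), 1922 in cluster 1 (1842 to 2005), 2156 in cluster 3 (2022 to 2298) and 1791 in cluster 4 (1567 to 2037). Cluster 2 stood apart at 4549 CPM (4248 to 4865). In PT-Cy cluster 2 had 3065 CPM (2960 to 3173) and cluster 4 had 2037 (1807 to 2287). Clusters 0, 1, 3 and 4 therefore still held sizeable levels of replication RNA. The RNA files hold CD4 cells only, so no cell type that lacks these genes was there to show how much of that level is RNA free in the droplets.

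**Figure D2:**
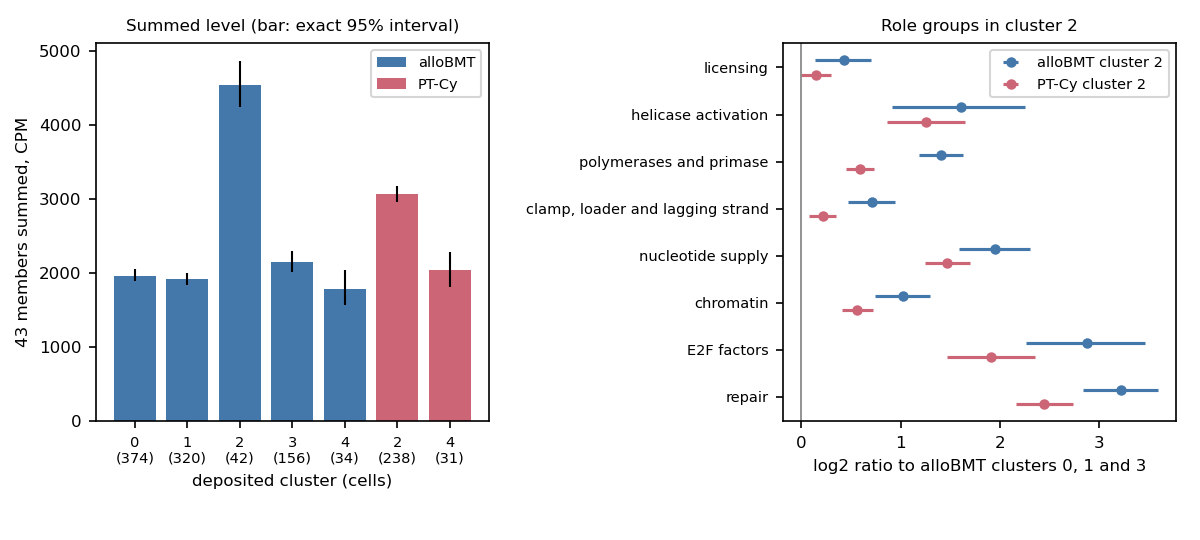
Left, summed level of the 43 members in each deposited CD4 cluster with at least 20 cells, in CPM, bars starting at 0 with exact 95% intervals. Right, log2 ratio of each role group in cluster 2 of either library to alloBMT clusters 0, 1 and 3; in both libraries repair and E2F factors have the highest ratios and licensing the lowest.

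Within alloBMT, cluster 2 was set against the 850 cells of clusters 0, 1 and 3. The clusters were made from these cells, so this comparison is a description. The summed log2 ratio was 1.20 (1.09 to 1.30). Of 42 members measured, 25 had an interval above 0, against 7.25% of genes, and 0 below, against 4.65%. Members differed widely. Neil3 went from 7.37 to 214 CPM (log2 ratio 4.86), E2f8 from 1.84 to 42.8 CPM (4.54), Mcm10 from 5.53 to 53.5 CPM (3.27) and E2f7 from 15.9 to 128 CPM (3.02). Mcm2, at 26.9 and 26.7 CPM, Mcm4, at 89.6 and 90.9 CPM, and Mcm6, at 156 and 176 CPM, were close between these clusters. By role, repair genes stood 3.22 higher, E2F factors 2.88, nucleotide supply 1.95 and licensing 0.43 (0.14 to 0.70). PT-Cy cluster 2 against the same alloBMT cells gave 2.45 for repair, 1.91 for E2F factors and 1.47 for nucleotide supply. For licensing it gave 0.15, with an interval (-0.003 to 0.29) that included 0. Both comparisons share the alloBMT cells, so their likeness is no independent result.

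Inside cluster 2 the direction turned. The 42 alloBMT cells had 851 member UMIs (4549 CPM) and the 238 PT-Cy cells 3208 (3065 CPM), a log2 ratio of -0.57 (-0.68 to -0.46). The interval lay below 0 for 15 of 41 members measured, against 6.98% of genes, and above 0 for 0, against 7.28%. Pola1 was lower in PT-Cy, with 94 UMIs (502 CPM) in alloBMT and 288 (275 CPM) in PT-Cy, a ratio of -0.87 (-1.21 to -0.52). Pole stood at 112 and 40.1 CPM, a ratio of -1.48 (-2.27 to -0.65), E2f7 at 128 and 46.8 CPM, -1.45 (-2.19 to -0.69), and Prim2 at 203 and 97.4 CPM, -1.06 (-1.61 to -0.48). Pcna stood at 305 and 178 CPM (-0.78) and Neil3 at 214 and 125 CPM (-0.77). E2f8 did not differ beyond counting error, at 42.8 and 41.1 CPM (-0.06, with an interval of -1.16 to 1.24). Rrm2, at 32.1 and 65.9 CPM, had a value on the other side, 1.04, with an interval (-0.16 to 2.53) that included 0. Nucleotide supply genes as a group, Rrm2 among them, were lower in PT-Cy here, at -0.48 (-0.83 to -0.12). In this group Rrm1 stood at 208 CPM in alloBMT and 124 in PT-Cy, Tyms at 139 and 73.6, and Tk1 at 69.5 and 57.3. Role sums were lowest for E2F factors (-0.97) and polymerases and primase (-0.82) and nearest to 0 for licensing (-0.28, with an interval of -0.57 to 0.02).

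**Figure D3:**
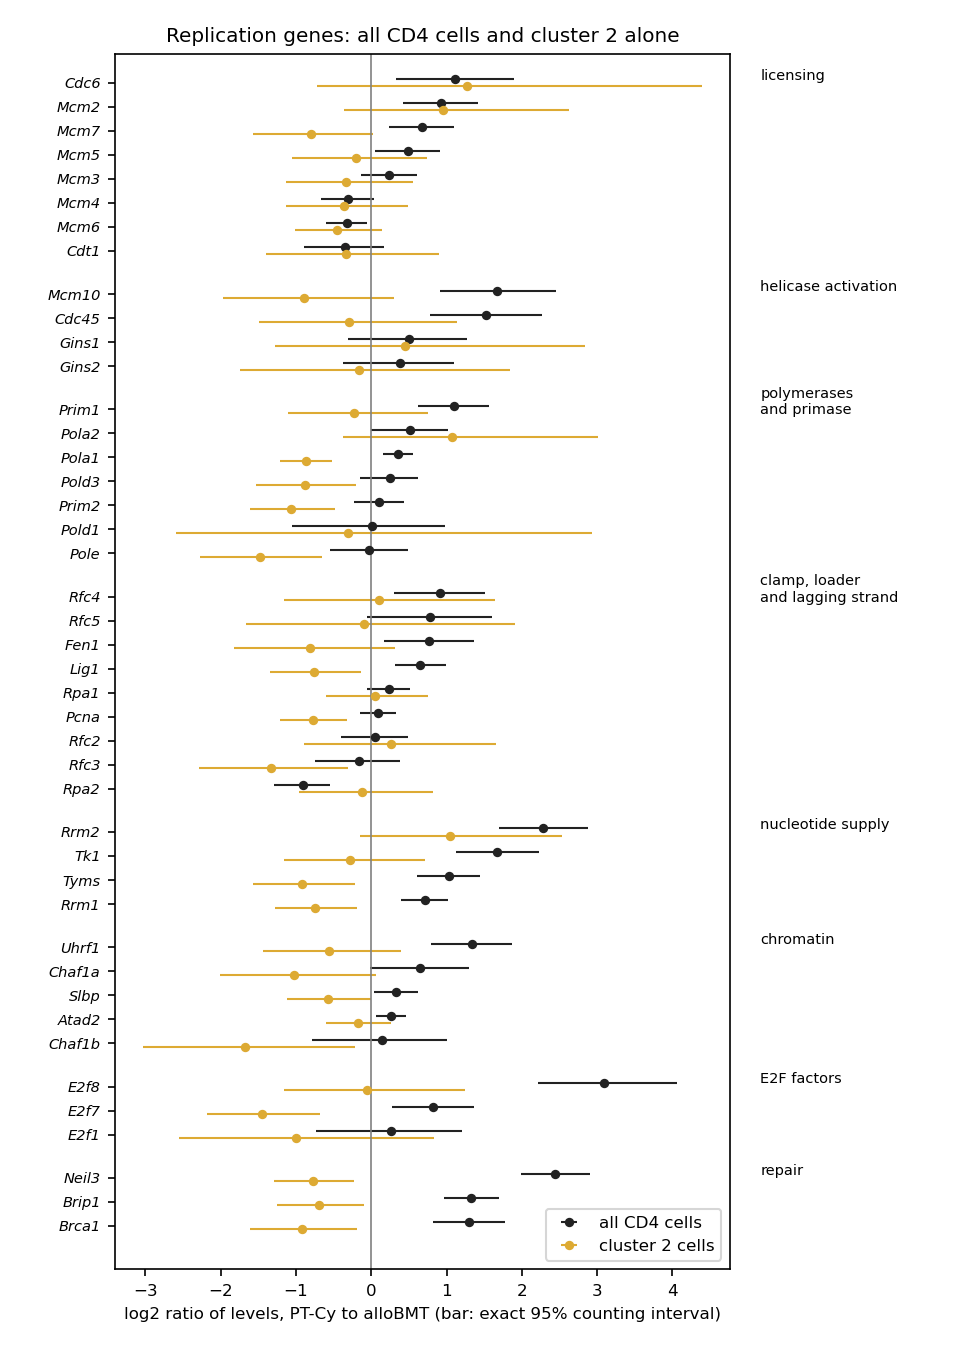
Log2 ratio of PT-Cy to alloBMT for each member, over all CD4 cells and over the cells of cluster 2 alone, with exact 95% counting intervals. Over all cells most members lie to the right of 0; in cluster 2 most lie to the left, and among those to the right Cdc6, Pola2, Rrm2 and Mcm2 lie farthest, with wide intervals that include 0.

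Cells in cluster 2 had close depths in the libraries, with medians of 4019 UMIs per cell in alloBMT and 3876 in PT-Cy. Erythroid markers stood at 155 CPM in alloBMT cluster 2 and 952 in PT-Cy cluster 2. Without cells that had 2 or more erythroid or myeloid UMIs, which left 34 alloBMT and 57 PT-Cy cells, the summed ratio in cluster 2 was -0.70 (-0.86 to -0.54). Without cells with a Cd8b1 UMI it was -0.73. In cluster 4 the members summed to 231 UMIs in alloBMT (34 cells) and 286 in PT-Cy (31 cells), a log2 ratio of 0.19 (-0.07 to 0.44). The same exclusion, which left 28 and 9 cells, turned it to -0.13 (-0.59 to 0.31). Outside cluster 2 as a whole, 884 alloBMT and 46 PT-Cy cells gave 0.02 (-0.12 to 0.16), so the higher level of the PT-Cy library was not seen in those cells.

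Single cells were compared after random thinning to an equal depth of 1981 UMIs. Too shallow for this were 96 cells of alloBMT and 25 of PT-Cy. In alloBMT, 262 of 830 thinned cells had at least 5 member UMIs, or 31.6% (28.4 to 34.8). In PT-Cy 134 of 259 did, or 51.7% (45.5 to 58.0). The means were 4.02 and 5.52 member UMIs per cell. At least 10 were found in 47 alloBMT cells (5.66%) and 33 PT-Cy cells (12.7%). In cluster 2 that order was the opposite, with 16 of 39 cells of alloBMT, or 41.0% (25.6 to 57.9), and 30 of 216 of PT-Cy, or 13.9% (9.57 to 19.2). The spread was also wider in alloBMT cluster 2, with a ratio of variance to mean of 4.14 against 2.45. By gene, Rrm2 UMIs were found in 2.53% of thinned alloBMT cells and 10.8% of PT-Cy cells (3.56% and 20.4% before thinning). Tk1 UMIs were found in 2.29% and 8.49% (5.08% and 19.0%), and Rpa2 UMIs in 20.7% and 11.6% (29.4% and 21.8%). Rrm2 and Tk1 were thus found in more PT-Cy cells and Rpa2 in fewer, at either depth.

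**Figure D4:**
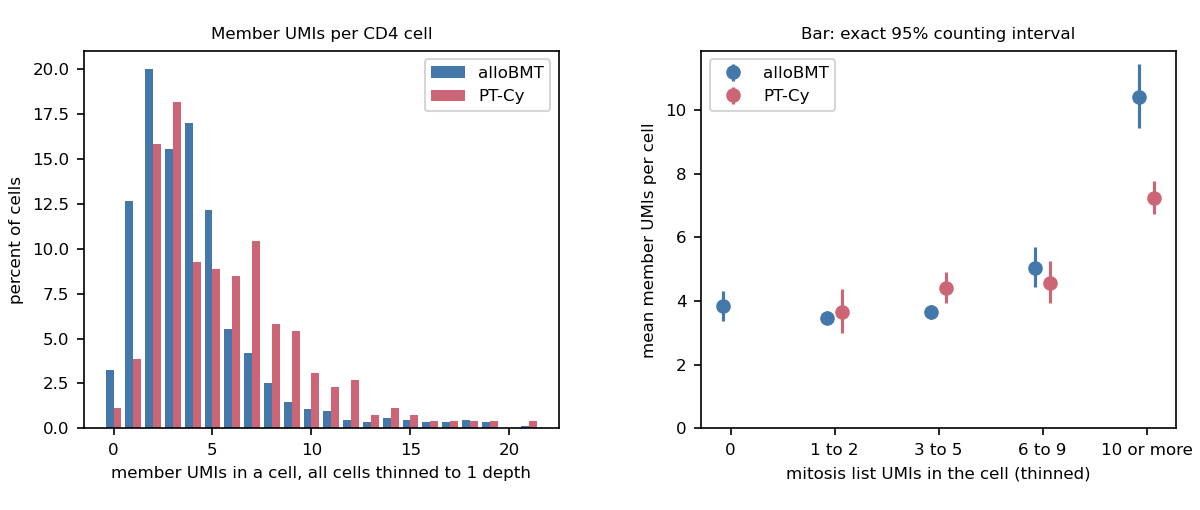
Left, percent of CD4 cells of each library by the number of member UMIs in the cell, after thinning every cell to 1 depth. Right, mean member UMIs per cell in cells grouped by their UMIs of 42 mitosis genes, with exact 95% counting intervals; with 10 or more mitosis UMIs, alloBMT cells had 10.4 member UMIs and PT-Cy cells 7.24.

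Replication and mitosis genes differed by unlike amounts. A list of 42 genes of mitosis, the phase in which chromosomes are parted, summed to 2118 CPM in alloBMT and 6939 in PT-Cy, a log2 ratio of 1.71 (1.67 to 1.76), and 39 of its 42 genes were at least 2-fold higher. Its median was 2.05, against 0.51 for the replication members. Top2a, the topoisomerase that untangles chromosomes, went from 263 to 806 CPM, and Mki67, which coats mitotic chromosomes, from 188 to 774. A further 56 replication and S phase genes had a median of 0.47, with 13 at least 2-fold higher and 1 lower. Over all 10122 genes, 9.01% were at least 2-fold higher and 4.68% lower. In cells with 1 to 2 mitosis UMIs the libraries had 3.48 and 3.65 member UMIs per cell (3.28 to 3.68 and 3.00 to 4.38). In cells with 10 or more, the 41 alloBMT cells had 10.4 (9.43 to 11.4) and the 110 PT-Cy cells 7.24 (6.74 to 7.76). In cells with 3 to 5 mitosis UMIs the order was the opposite, at 3.65 (3.45 to 3.86) and 4.40 (3.93 to 4.91). So PT-Cy cells held fewer member UMIs at the most mitosis UMIs and more at 3 to 5, beyond counting error. In cluster 2 the mitosis list had a log2 ratio of -0.29 (-0.37 to -0.22), smaller in size than that of the members, and in cluster 4 of 1.49 (1.26 to 1.72).

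Genes of cell cycle exit and entry were read beside them. Of 22 inhibitors and quiescence genes, 4 were at least 2-fold higher in PT-Cy and 1 lower, with a median log2 ratio of 0.40. The shares over all genes, for this list and the next, were 9.01% higher and 4.68% lower. The 4 higher genes were Cdkn1a, Cdkn2a, Cdkn2c and Cdkn2d. Btg1, which restrains proliferation, went from 1270 to 616 CPM, and Foxo1, a factor of resting T cells, from 188 to 326. Of 8 measured G1 cyclins and growth genes, 0 were 2-fold higher and 1 lower, and the median was -0.58. The cyclin Ccnd3 and the kinase Cdk6 stood at 653 and 950.1 CPM in alloBMT and 408 and 613 in PT-Cy, while Ccnd2 went from 291 to 482.

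T cell state genes were compared between thinned cells with 8 or more member UMIs and cells with 2 or fewer, within each library. These were 80 and 298 cells in alloBMT and 62 and 54 in PT-Cy. The genes given are some of 20 listed and were not limited to those with the most UMIs. Il18r1, an IL-18 receptor chain, was lower in the cells rich in member UMIs in both libraries, with log2 ratios of -2.34 (-4.00 to -1.07) in alloBMT and -0.98 (-1.75 to -0.23) in PT-Cy. Bach2, a factor of resting lymphocytes, had -1.36 (-3.05 to -0.04) and -1.98 (-3.23 to -0.87). Il18r1 and Bach2 each had only 5 UMIs in the alloBMT cells rich in member UMIs. Ifng, the cytokine interferon gamma, had -0.93 (-1.69 to -0.25) in alloBMT and 1.39 (-0.33 to 3.48) in PT-Cy. Gzmb, a cytotoxic protease, had -0.22 (-0.81 to 0.33) in alloBMT and 0.86 (0.18 to 1.56) in PT-Cy. Tox, a factor of exhausted T cells, had -0.26 (-0.37 to -0.15) in alloBMT and 0.24 (-0.05 to 0.53) in PT-Cy. Il7r (-1.33), Satb1 (-1.17) and Ccl5 (-0.17) also had alloBMT intervals below 0, and their PT-Cy intervals included 0. No listed gene had an alloBMT interval above 0. No difference between the libraries in these ratios was tested.

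Accessibility was read in 228 peaks that overlap a member or lie within 2 kb of it, in 926 alloBMT and 284 PT-Cy cells of the CD4 set and 1865 and 512 of the CD8 set. Levels are again CPM, here of all counts in peaks of the same set and library. The CD4 set had 20792 counts at members in alloBMT and 4429 in PT-Cy (2981 and 2878 CPM), a log2 ratio of -0.05 (-0.10 to -0.004). The CD8 set stood at 2935 and 2954 CPM, a ratio of 0.01 (-0.02 to 0.04). So with this scaling the open chromatin of replication genes as a whole differed little, in CD4 cells by far less than their RNA. With TMM, whose values are given below, the CD4 ratios of accessibility and RNA were close in size and opposite in sign. In the CD4 set 2 members had intervals above 0, against 8.69% of 17634 genes with at least 100 counts, and 6 below, against 8.64%. The CD8 set had 1 above, against 10.2% of 20809 genes, and 4 below, against 9.74%. These are small counts, of 43 members in each set, and their difference from the shares over all genes was not tested.

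Promoter peaks were read on their own. In the CD4 set the 36 promoter peaks stood at 1823 (alloBMT) and 1890.2 CPM (PT-Cy), a log2 ratio of 0.05 (-0.01 to 0.11), where all member peaks gave a negative value. In the CD8 set they had 1798 and 1889, a ratio of 0.07 (0.03 to 0.11). Promoter peaks of all genes had 0.005 and 0.002. Scaled by TMM, the ratios of all member peaks were -0.25 in the CD4 set and -0.08 in the CD8 set, and those of the promoter peaks -0.14 (-0.20 to -0.09) and -0.02 (-0.06 to 0.02). The direction in promoters therefore turned with the scaling. Another gene's promoter was also covered by 8 of the 36 peaks, among them those of Mcm7, Cdc45, Tk1 and Brca1.

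Single peaks were read over CD4 and CD8 cells together. Of 87 member peaks with at least 100 counts, 5 had an interval above 0, against 10.7% of 44801 such peaks, and 11 below, against 13.0%. Of the 5 above 0, 4 were among the 36 promoter peaks and 1 among the 51 other member peaks. The Neil3 promoter peak, chr8:53638034-53639766, which holds the printed Neil3 stretch, had 128 alloBMT and 42 PT-Cy counts in CD4 cells (18.4 and 27.3 CPM), a log2 ratio of 0.57 (0.03 to 1.09), and 308 and 83 in CD8 cells (18.5 and 26.6 CPM), 0.52 (0.15 to 0.88). Scaled by TMM, the values were 0.38 (-0.16 to 0.89) and 0.43 (0.07 to 0.79), so only the CD8 interval stayed above 0. The Prim1 promoter peak, chr10:128014782-128015767, had a higher value in CD4 cells, 0.74 (0.14 to 1.31) on 95 and 35 counts, and 0.14 (-0.33 to 0.59) in CD8 cells. With TMM its CD4 interval included 0 (-0.06 to 1.12). In CD4 cells, intervals lay below 0 at the promoters of Mcm3 (-0.77, with an interval of -1.36 to -0.22), Rrm1 (-0.43) and Pold3 (-0.42). Besides Neil3 and Prim1, those of E2f7 (0.40), Uhrf1 (0.34) and Brca1 (0.29) lay above 0. With TMM the CD4 intervals of Mcm3, Rrm1, Pold3, Cdt1, Cdc45 and Slbp lay below 0, and those of E2f7, Uhrf1 and Brca1 included 0. The E2f8 promoter peak, chr7:48880482-48882619, had 55.3 and 62.4 CPM in CD4 cells and 59.9 and 74.1 in CD8 cells, 0.26 (0.08 to 0.44) over both. The promoters of Uhrf1 (0.25, with an interval of 0.07 to 0.42) and Brip1 (0.25, with an interval of 0.06 to 0.43) had like ratios, and a small peak upstream of Rrm2, chr12:24706749-24707129, had 91 and 33 counts and a ratio of 0.88 (0.26 to 1.47). With TMM, 4 of the 5 intervals stayed above 0 (that of Brip1 did not), and 19 of the 87 peaks lay below 0. Over all 44801 peaks, 3584 lay above 0 and 8101 below with the same scaling.

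**Figure D5:**
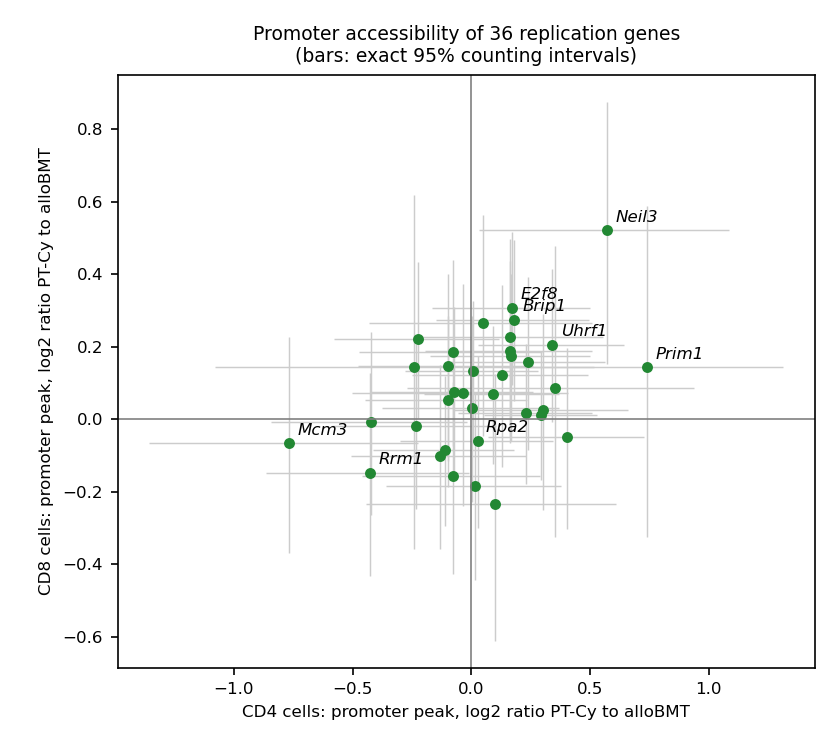
Log2 ratio of PT-Cy to alloBMT of the promoter peak of 36 members, in CD4 cells (horizontal) and CD8 cells (vertical), with exact 95% counting intervals. Neil3 lies highest on the CD8 axis, at 0.52 (0.57 in CD4). On the CD4 axis Prim1 lies farthest to the right, at 0.74 (0.14 in CD8), and Mcm3 farthest to the left, at -0.77 (-0.06 in CD8).

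Of the 11 peaks below 0, 10 were among the 51 member peaks that are not promoters and 1 among the 36 promoter peaks. With TMM, 3 of the 36 promoter peaks lay above 0 and 2 below. The shares of all promoter peaks and of all other peaks past 0 were not computed, so this split was not set against them. In CD4 cells the largest shift was inside Rpa2, at chr4:132771630-132772150. There this peak had 152 alloBMT and 6 PT-Cy counts (21.8 and 3.90 CPM), a log2 ratio of -2.48 (-3.95 to -1.33). In CD8 cells the same peak had 373 and 43 counts (22.5 and 13.8 CPM), -0.70 (-1.19 to -0.25). A second Rpa2 peak, chr4:132774645-132775720, had -1.15 (-1.84 to -0.53) and -0.57 (-0.94 to -0.23). The Rpa2 promoter peak, which holds the printed E2F letters, was level, at 0.03 (-0.30 to 0.34) in CD4 and -0.06 (-0.30 to 0.17) in CD8 cells. So the lower Rpa2 RNA went with less open peaks inside the gene and a level promoter. A Gins1 peak, chr2:150918420-150919112, had -1.11 (-2.37 to -0.06) in CD4 and -1.12 (-2.02 to -0.33) in CD8 cells. Over both sets with TMM this Gins1 peak had -1.18 and the first Rpa2 peak -1.15. Over both sets together, peaks inside Pole, chr5:110300177-110301017, and Rpa1, chr11:75318269-75319573, had -1.02 (-1.89 to -0.25) and -0.68 (-1.14 to -0.24).

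By cluster, member promoters in alloBMT CD4 cells were most open in cluster 2, where their RNA was highest. It had 2135 CPM in promoter peaks (2004 to 2272), against 1845, 1785 and 1824 in clusters 0, 1 and 3 and 1540.4 in cluster 4. PT-Cy CD4 cluster 2 had 1907 (1834 to 1983) and cluster 4 1821. The CD8 set has its own clusters, and there alloBMT cluster 2 had 2093 (2033 to 2155), against 1680.2 to 1827 in the other 7 clusters, and PT-Cy cluster 2 had 1939.8 (1868 to 2013). PT-Cy cluster 1, with 23 cells, stood at 2123 (1804 to 2482), and PT-Cy clusters 5 and 6 at 1840.3 and 1818. No RNA of CD8 cells was analysed here. The CD8 cells of alloBMT cluster 2 also had the most counts per cell, with a median of 15014, against 2449 to 9370.0 in the others. The part of depth in these levels was not tested. Promoter peaks took 44.4% of all counts in that cluster and 41.4% to 44.3% in the other alloBMT CD8 clusters.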

How the data were processed

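T cells sorted from bone marrow gave 1 RNA and 1 ATAC library per group, from 4 pooled mice each. Tables of whole-number RNA UMI counts per gene and cell, for CD4 cells, and of ATAC counts per peak and cell were deposited by the authors, with a per-cell table of 58 named columns, of which 47 were not used here. Used from that table were, per the file headers, clusters and library names, a percent of mitochondrial UMIs, a fraction (ATAC fragments that fell in peaks) and a ratio (enrichment at transcription starts). Cell Ranger ARC 1.0.1 and MACS2 are named in the submitters' processing notes, with the build GRCh38, which is human. Gene names and peaks are mouse: of 27025 genes' promoter windows in GRCm38.p6, 53.2% lay on a peak, and 9.97% and 9.92% when moved by 20000 and 100000 bases.

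UMIs were summed per library and cluster (clusters with at least 20 cells) and divided by the library's or cluster's total (CPM). Log2 ratios have exact conditional binomial 95% intervals, and single levels and shares exact Poisson and Clopper-Pearson ones; all cover counting error only. On simulated counts this interval was tested with known fold changes. Cells were thinned at random to the 10th percentile of UMIs per cell. No further filter or doublet caller was applied to the deposited cells. Python 3.11.15 with numpy 2.4.6 and scipy 1.17.1 was used, and edgeR 4.0.16 and DESeq2 1.42.0 only for scaling factors. With 1 library per group no test was possible.

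Members and lists were chosen with earlier results of these data known. Members with at least 100 UMIs are named with values, and of the others the lowest and highest ratio of each role. Peaks are named where the interval of the ratio lies past 0, up to 5 in each direction. Cdc45, Gins1 and the promoter peaks named for CD4 cells alone, among them that of Prim1, were named after their values were seen. Alternatives tried were other scalings, means over cells, left-out cells, other thresholds, thinning depths and peak windows.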

Additional observations from a re-analysis of the deposited data

Results flagged for a closer look

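Within the deposited CD4 clusters, the summed member UMIs had opposite signs of the log2 ratio of PT-Cy to alloBMT, at -0.57 in cluster 2 and 0.19 in cluster 4. The difference was not tested, and the interval in cluster 4 included 0. Without cells that had 2 or more erythroid or myeloid UMIs both values were negative, -0.70 and -0.13. The mitosis list did the same, at -0.29 in cluster 2 and 1.49 in cluster 4, with both intervals clear of 0, and this difference was not tested either. Summed member accessibility was -0.051 in the CD4 set and 0.0092 in the CD8 set. The interval of the latter included 0, and the difference was not tested.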

How the results depend on the processing

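The main limit is that each group is 1 library of 4 pooled mice, so no alternative leaves out a replicate. No paired analysis was possible because each group has 1 library and no result comes from a test. The summed RNA ratio of 0.44 became 0.30 with TMM and 0.30 with DESeq2 factors. It was 0.37 without cells with a Cd8b1 UMI, 0.022 outside cluster 2 and 0.50 without the 3 members with the most UMIs. Without cells that had 2 or more erythroid or myeloid UMIs, which left 743 alloBMT and 71 PT-Cy cells, it was 0.38. The count of members at least 2-fold higher ranged from 8 to 13 around 12. Within cluster 2 the ratio of -0.57 became -0.73 without Cd8b1 cells and -0.70 without cells that had 2 or more erythroid or myeloid UMIs. The latter alternative, within clusters chosen after seeing the data, turned 0.19 into -0.13 in cluster 4, on 28 and 9 cells. Shares of cells with at least 5 member UMIs, 31.6% and 51.7%, became 43.8% and 60.9% when thinned to the 25th percentile, 64.1% and 79.2% at 3 UMIs, and 9.64% and 23.9% at 8. The accessibility ratios of -0.051 (CD4) and 0.0092 (CD8) became 0.053 and 0.071 in promoter peaks and -0.25 and -0.079 with TMM. With both, chosen after seeing the data, they became -0.144 and -0.016. Single members turned sign outside cluster 2, where PT-Cy has 46 cells: Mcm5 to -1.06, Cdc6 to -1.15, Pola1 to -0.16, Slbp to -0.35, Atad2 to -0.11 and E2f7 to -0.78. The values of Mcm5, Cdc6 and E2f7 rest on very few PT-Cy UMIs. Mcm5 and Slbp turned to -0.65 and -0.23 without cells that had 2 or more erythroid or myeloid UMIs. The cause of these moves was not tested.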
